A study of Mus musculus with 12 samples.

Results

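A set of 133 genes that lost RNA on day 2 of OHT in embryonic stem cells (ESCs) without Ring1B E3 activity, and kept it where WT Ring1B was supplied, is described here. The genes were chosen by their own measured changes. After quantile normalization of 12 arrays, probe sets with a single gene symbol and a highest log2 signal above 6 were averaged per gene, which gave 11170 genes. A gene was selected on a log2 change, OHT+ minus OHT-, of -0.4 or lower in the mock line and in each of 3 mutant lines, and above -0.3 in both WT lines. The members are 1.19% of the genes measured. Symbols that start with Hox, Zic, Pax, Tbx, Irx, Lhx, Fox, Sox, Wnt, Col or Kcn were to be left out, and 0 genes that met the other conditions had such a symbol. The same conditions turned the other way were met by 278 genes.

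All lines are *Ring1A*-/-; *Ring1B* fl/fl; *Rosa26::CreERT2* ESCs of 129/B6 hybrid background, so *Ring1A* is missing in every group, and OHT activates the Cre that deletes the endogenous *Ring1B*. The mock line carries an empty vector, the 2 WT lines (#1 and #3) express WT Ring1B, 2 lines (#1 and #4) express Ring1B (I53S) and 1 line (#1) expresses Ring1B (I53A). I53S and I53A replace a residue of the Ring1B RING domain and are treated here as the mutant lines. The labels give 800 nM OHT for 24 h, and OHT+ arrays are of day 2. Each line has 1 array untreated and 1 array treated. The constructs were stably transfected behind a constitutive promoter and selected with puromycin, and cells were kept on irradiated fibroblast feeders or on gelatin, which the labels do not tell apart by array. A line is therefore the replicate, and the mock and I53A effects each rest on 1 line. The sources used here do not say whether the lines were treated side by side.

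Ring1B is the catalytic core of Polycomb repressive complex 1 (PRC1), and with an E2 enzyme it attaches ubiquitin to lysine 119 of histone H2A (H2AK119u1). PRC1 is best known for holding developmental regulators silent in ESCs, so genes that lose RNA when its activity is removed are not the class the complex is usually described by. ESCs keep their identity through a network of transcription factors, LIF receptor signalling and a low output of ERK signalling, and many genes of that network are shut down as cells leave pluripotency.

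The sequence around the transcription start was not used to choose the genes. A window from 250 bases before to 50 bases after the start was given by RefSeq (GRCm38.p6) for 111 members and for 9049 of all genes measured. Sequences before the start are shown for 4 members. They are 1 example each of a CpG-rich window, a TATA box near the start, a window with the letters TATAAA and AACAAAG, and an *Ifitm* gene. Capitals mark the TATA box letters TATAAA, the core AACAAAG that TCF/LEF and SOX factors read and the GC box letters GGGCGG. Where such a motif lies on the other strand, the capitals show its reverse complement.
Trh, chr6:92244651-92244900, minus strand: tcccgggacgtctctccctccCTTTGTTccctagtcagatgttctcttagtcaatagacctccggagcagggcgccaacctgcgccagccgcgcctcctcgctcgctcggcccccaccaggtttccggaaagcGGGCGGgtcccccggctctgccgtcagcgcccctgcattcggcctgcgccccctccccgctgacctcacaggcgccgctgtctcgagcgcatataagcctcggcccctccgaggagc
Nr0b1, chrX:86191525-86191774, plus strand: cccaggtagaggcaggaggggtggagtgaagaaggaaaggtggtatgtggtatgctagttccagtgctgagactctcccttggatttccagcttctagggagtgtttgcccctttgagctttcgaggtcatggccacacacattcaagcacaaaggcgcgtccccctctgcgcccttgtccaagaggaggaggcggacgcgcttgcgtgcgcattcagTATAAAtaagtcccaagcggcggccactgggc
Pdcl2, chr5:76331157-76331406, minus strand: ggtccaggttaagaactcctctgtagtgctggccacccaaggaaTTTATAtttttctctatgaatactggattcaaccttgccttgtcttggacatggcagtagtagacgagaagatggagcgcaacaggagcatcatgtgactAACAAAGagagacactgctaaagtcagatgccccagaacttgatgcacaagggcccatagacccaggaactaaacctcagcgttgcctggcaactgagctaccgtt
Ifitm3, chr7:141010745-141010994, minus strand: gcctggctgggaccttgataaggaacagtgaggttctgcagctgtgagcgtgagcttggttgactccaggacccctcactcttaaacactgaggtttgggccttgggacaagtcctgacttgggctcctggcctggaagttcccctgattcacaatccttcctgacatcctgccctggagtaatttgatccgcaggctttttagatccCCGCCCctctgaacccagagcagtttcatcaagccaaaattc

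*Trh*, the member with the largest mean fall, had a window with a ratio of observed to expected CpG of 0.876. It held the letters AACAAAG on the other strand, beginning at base -229. Near the start the window also holds the letters TATAAG, which the search for exact TATAAA did not count. *Nr0b1* had a CpG ratio of 0.551 and a TATAAA that begins 32 bases before the start (base -32). *Pdcl2* had a ratio of 0.368, with the letters TATAAA on the other strand at base -206, far from the start, and AACAAAG at base -106. *Ifitm3* had a ratio of 0.238 and a GGGCGG on the other strand at base -42. The examples thus run from a CpG-rich to a CpG-poor start.

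Over the members, the CpG ratio had a median of 0.666 and quartiles of 0.305 and 0.878, against a median of 0.78 and quartiles of 0.602 and 0.922 over all genes with a window. A ratio under 0.6, below which a start is usually not counted as a CpG island, was found in 51 members (45.9%) and in 24.8% of all genes. GC content had a median of 55.3% in the members and 61.3% in all genes. TATAAA, the core of the TATA box, occurred in 17 members (15.3%) and in 6.82% of all genes. AACAAAG, a core read by TCF/LEF and SOX factors, occurred in 12 members (10.8%) and in 3.6% of all genes. GGGCGG, the GC box, was held by 45.9% of the members and 67.0% of all genes, the ETS core CCGGAAG by 11.7% and 18.8%, and the E-box CACGTG by 6.31% and 10.7%. The other motifs searched were CCAAT (45.9% against 38.8%), the octamer ATTTGCAT (1.8% against 1.37%), the STAT core TTCNNNGAA (8.11% against 6.25%), the CRE TGACGTCA (2.7% against 3.34%) and TGACCTTTG, which nuclear receptors of the ESRR type read (0% against 0.243%).

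No test was made of these shares. Both strands were searched, GGGCGG depends on GC content and CpG-poor windows have more room for AT-rich letters, so these shares are not independent of each other. The TATAAA holders were *Nr0b1*, *Hesx1*, *Pdcl2*, *Klf12*, *Ddx58*, *Zfp827*, *Accsl*, *Lrrc2*, *Abcg2*, *Zfp799*, *Ifitm2*, *Zfp652*, *Slc20a1*, *Arid5b*, *Otx2*, *Gm20559* and *Vegfd*. The AACAAAG holders were *Trh*, *Pdcl2*, *Pde4d*, *Slc5a4b*, *Zbtb38*, *Tmem40*, *Cfp*, *Kat2b*, *Fam169a*, *Enah*, *Apoe* and *Fzd7*. A match is a description of the letters in the window, with no statement about binding.

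**Figure D1:**
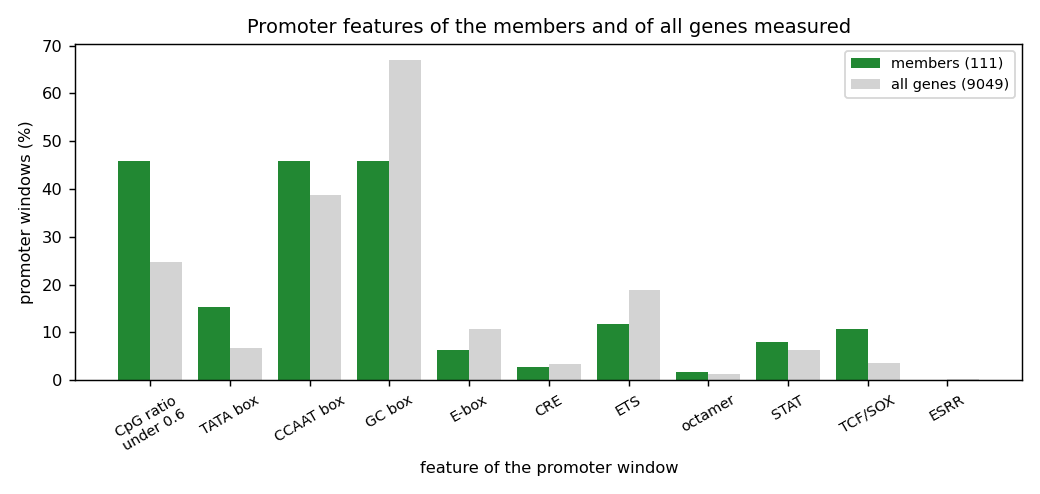
Percent of promoter windows (vertical axis) that have a CpG ratio under 0.6 or hold a motif at least 1 time on either strand, for 111 members (green) and 9049 genes with a window (grey). The largest gaps are those for the CpG ratio (45.9% against 24.8%) and the GC box (45.9% against 67.0%).

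The median fall was deepest in the mock line. There the members changed by a median of -0.90 on the log2 scale, with a range from -2.53 to -0.40, which left 53.6% of the untreated signal. The medians were -0.69 in I53S #1, -0.60 in I53S #4 and -0.66 in I53A #1, or 62.2%, 65.8% and 63.4% of the signal. In WT #1 and WT #3 the medians were -0.04 and -0.08, or 97.2% and 94.8%. The median over all genes lay between -0.01 and 0.01 in every line.

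With each line left out in turn 147 to 241 genes met the conditions, the most without I53S #4, and with the values as deposited 269 did, 125 of them members.

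The directions were fixed by the choice of the genes. The WT limit was less of a filter than it may seem, because 86.5% of all genes were above -0.3 in both WT lines. Of 177 genes at -0.4 or lower in the mock and mutant lines, 133 (75.1%) passed the WT limit and 44 (24.9%) did not. A log2 change of -0.4 or lower was found in 12.9% of all genes in the mock line, 9.41%, 7.22% and 8.88% in I53S #1, I53S #4 and I53A #1, and 4.32% and 3.45% in WT #1 and WT #3. Changes of all genes also spread more widely in the mock line, with an SD of 0.52, than in the mutant lines (0.39 to 0.45) and the WT lines (0.24 and 0.27).

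**Figure D2:**
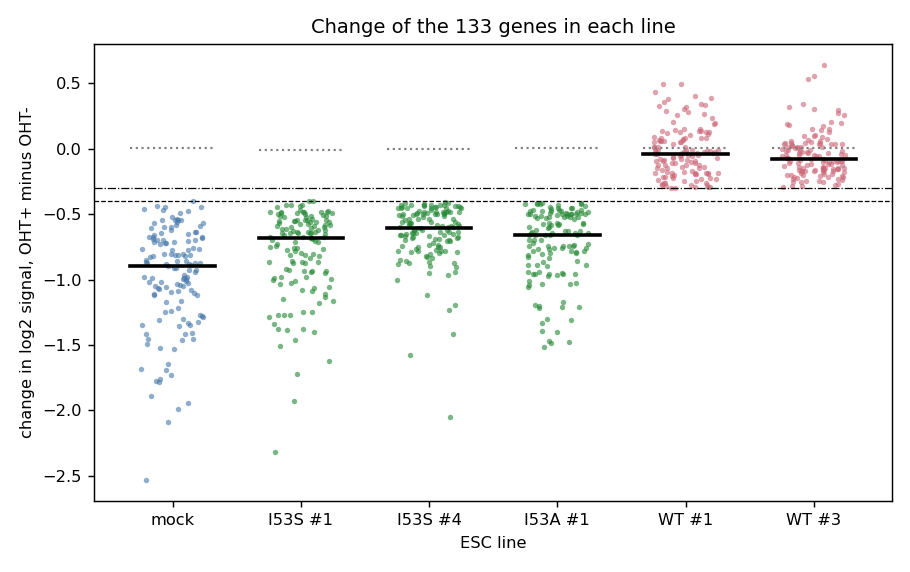
Change in log2 signal, OHT+ minus OHT- (vertical axis), of the 133 members (points) in each line, with the members' median (black bar) and the median of all genes (grey dotted bar). The dashed line at -0.4 and the dash-dotted line at -0.3 are the limits that chose the genes, so that the empty space between the groups is set by the choice; the mock line reaches the lowest value, -2.53.

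Fitted with limma over all genes with the line as a block, the OHT effect in the mutant lines was called lower for 774 genes (6.93%) and higher for 1250 genes (11.2%) at an adjusted p under 0.05. All 133 members were among the lower calls, which the selection on the same lines had prepared and which is no evidence about them. Without the line as a block 661 genes were called in either direction, and without I53S #1, I53S #4 or I53A #1 the count fell from 2024 to 967, 1123 and 985. The split between lower and higher calls also depended on the scaling, with 1367 lower and 876 higher for values as deposited and 489 lower and 1454 higher for arrays centred on their medians. In the WT lines the effect was called for 0 of 11170 genes in either direction (0% lower, 0% higher), with 348 lower and 587 higher at an unadjusted p under 0.05, of which 7 and 4 were members. No trended or robust prior, scaling or filter tried gave a call in the WT lines. The count of 0 covers only 2 lines.

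The members differed in how many lines carried the strongest fall. It was in the mock line for 82 members, in I53S #1 for 25, in I53A #1 for 19 and in I53S #4 for 7. The weakest of the 4 falls was in I53S #4 for 58 members, I53A #1 for 42, I53S #1 for 24 and the mock line for 9. The mock change was below the mean of the mutant lines for 112 of 133 members, and the median of this difference was -0.22 over the members and 0.01 over all genes. In the limma test of mock minus mutant OHT effect, 0 genes were called in either direction (0% lower, 0% higher). At an unadjusted p under 0.05 there were 1017 of all genes, 488 lower and 529 higher. Among the members 29 were lower and 0 higher at an unadjusted p under 0.05, and their smallest limma adjusted p was 0.364. The members were chosen on a fall in the mock line, where changes of all genes spread most widely (SD 0.52). How far that choice made the members' split was not tested. With a trended and robust prior 19 genes were called, 0 of them members. Because the mock line is a single line and every member had to fall in it, no difference between losing Ring1B and losing its activity was shown for any member.

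The 3 members with the smallest p for mock minus mutant were 2610044O15Rik8, *Actn3* and *Aoah*. 2610044O15Rik8, which has no assigned function, changed by -1.36 in the mock line and by -0.49, -0.49 and -0.50 in the mutant lines, a difference of -0.87 ± 0.16 (SE; limma adjusted p = 0.364). For *Actn3*, an alpha-actinin of fast muscle fibres, the difference was -0.86 ± 0.18 (SE; limma adjusted p = 0.374). For *Aoah*, an acyloxyacyl hydrolase that inactivates bacterial lipopolysaccharide, it was -1.17 ± 0.27 (SE; limma adjusted p = 0.374).

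The I53S and I53A proteins were compared in the same way. For I53S minus I53A OHT effect 0 genes were called (0% lower, 0% higher), with 572 at an unadjusted p under 0.05, of which 3 members were lower and 5 higher. The median of the difference was -0.01 over the members and -0.01 over all genes. The smallest p among members belonged to *Fgd4*, an exchange factor for Cdc42, which changed by -0.45 and -0.47 in the I53S lines and by -1.48 in the I53A line, a difference of 1.02 ± 0.18 (SE; limma adjusted p = 0.929). *Zfp827* (0.78 ± 0.20, SE) and *Trh* (-0.67 ± 0.18, SE) followed with the same limma adjusted p of 0.929. With a single I53A line, a difference of this size was not resolved.

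Before OHT the median log2 signal of the members was 8.33 in the mock line, 8.07 and 8.12 in WT #1 and WT #3, and 8.03, 7.94 and 8.09 in I53S #1, I53S #4 and I53A #1. The mock line started higher, with 100 of 133 members above the mean of the WT lines and a median difference of 0.18, against -0.02 over all genes. The untreated arrays were part of the choice, since a high untreated value deepens the fall. How far the choice made this higher start was not tested, and the share of all genes above the WT mean was not counted. On day 2 they were 8.15 and 8.03 for WT #1 and WT #3, 7.34 for mock and 7.33, 7.33 and 7.28 for I53S #1, I53S #4 and I53A #1. The mock line thus started as the highest and ended near the mutant lines.

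For 108 members all 4 treated arrays of the mock and mutant lines lay below both treated WT arrays, and for 25 the groups overlapped. For 87 members those 4 arrays lay below all 8 other arrays. Before OHT the same lines were all above the WT lines for 12 members, all below for 6 and overlapping for 115. These are the arrays that chose the genes, and the same counts were not made over all genes. They are therefore a description of the members, given without a test or a background. As the arrays measure RNA from whole cultures, fewer cells expressing a gene and less RNA per cell cannot be told apart.

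A mean fall over the 4 lines of more than 1 on the log2 scale was found for 23 members, from 0.7 to 1 for 49 and under 0.7 for 61. Its median was -0.715 on the log2 scale, equal to 60.9% of the untreated signal. In the WT lines 26 members were above 0 in both, 64 below 0 in both and 43 had opposite signs. The members were not a set of faint genes: their median level over the arrays was 7.89, against 7.66 for all genes. Of the members, 20 had a mean level under 6, and 4 (BC064078, *Slc5a4b*, *Zfp827* and *Vegfd*) passed the signal limit only on untreated arrays of the lines in which they fell.

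A single probe set measured 82 members. For the other 51, which have 137 probe sets, all probe sets had a mean change below 0 over the 4 lines. Every probe set met the conditions by itself for 4 of these genes, and no probe set did so for 12. *Pitpnc1*, a phosphatidylinositol transfer protein, had the most, with 8 probe sets that changed by -0.91 to -1.92 in the mock line. RefSeq listed 124 members as protein coding and 8 as lncRNA, and 1 member was not in its table.

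Nearest inside the limits were *Zeb1*, by 0.0007 in I53S #1, *Bod1l*, by 0.0008 in the mock line, and *Nf2*, by 0.0018 in WT #1. Nearest outside were *Enpp3*, at -0.30 in WT #3, *Mtss1*, at -0.40 in I53S #4, and *Nol10*, at -0.39 in the same line. *Enpp3* changed by -1.14 in the mock line and by -1.55, -1.32 and -1.11 in the mutant lines, more than most members. The set is thus bounded by values that differ in the third decimal place.

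*Trh* encodes the precursor of thyrotropin-releasing hormone. Its log2 signal went from 10.43 to 7.90 in the mock line, 11.01 to 8.69 in I53S #1, 10.44 to 8.38 in I53S #4 and 9.83 to 8.31 in I53A #1. It went from 9.999 to 9.81 in WT #1 and from 10.22 to 9.98 in WT #3. All 4 treated arrays without E3 activity were thus more than 1 log2 unit below the other 8 arrays, and the changes were -2.53, -2.32, -2.05 and -1.51 against -0.19 and -0.23.

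*Nr0b1* encodes Dax1, a nuclear receptor without a DNA-binding domain of the usual kind that acts in the pluripotency network. It went from 10.46 to 8.97 in the mock line, 10.06 to 8.71 in I53S #1, 10.51 to 9.28 in I53S #4 and 10.44 to 9.04 in I53A #1. It stayed between 10.41 and 10.49 on the 4 WT arrays. Its changes lay closer together than those of *Trh*, from -1.49 to -1.23.

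Other members with a role in pluripotency or the early embryo were *Hesx1*, *Morc1*, *Eras*, *Myc*, *Apela*, *Sall1*, *Mycn* and *Otx2*. This class and the others below were formed after the members' names were seen. Its 10 genes changed by a median of -1.22 for mock, -1.12, -0.70 and -0.91 in I53S #1, I53S #4 and I53A #1, and -0.10 and -0.11 in WT #1 and WT #3. They were also among the brighter members, with a median level of 9.55.

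*Eras*, a Ras protein expressed in ESCs that promotes their growth, went from 10.61 to 9.15 in the mock line and by -1.24, -0.86 and -0.75 in I53S #1, I53S #4 and I53A #1. *Morc1*, which acts in the silencing of transposons in the male germ line, went from 11.27 to 9.94 in the mock line and by -1.38, -0.88 and -0.96 in the mutant lines. *Hesx1*, a homeobox gene of the anterior forebrain and pituitary, started between 7.65 and 8.99 in the 6 lines and changed by -1.46, -1.27, -0.72 and -1.48 in the lines without E3 activity. *Otx2*, a homeobox gene that marks the step towards the epiblast, was close to the WT limit, with -0.29 in both WT lines and -0.45 to -0.72 in the others. *Eras* and *Morc1* therefore separated the groups clearly, and *Otx2* did so by a small margin.

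The *Myc* genes encode E-box binding factors that drive cell growth. *Myc* went from 8.38 to 7.28 in the mock line, 7.82 to 7.23 in I53S #1, 7.85 to 7.25 in I53S #4 and 6.95 to 6.01 in I53A #1. In the WT lines it went from 7.33 to 7.47 and from 7.77 to 7.82. *Mycn* changed by -0.96, -0.68, -0.44 and -0.49, and the third measured gene of the family, *Mycl*, by 0.15, 0.13, 0.13 and 0.14 in the same lines. The *Mycn* values average 3 probe sets, of which 2 met the conditions alone. The brightest changed by -1.66, -0.96, -0.88 and -0.83, and the faintest by -0.39, -0.47, 0.04 and 0.09.

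Against lists of genes for the tissue, 9 members were on a list and 124 on none of the 23 lists. Together the lists hold 330 of the 11170 genes measured. Of 21 measured genes of naive pluripotency, 3 were members (*Nr0b1*, *Eras* and the LIF receptor gene *Lifr*), and the mutant effect was called lower for 7 and higher for 4. *Dppa3* and *Klf4* were among the higher calls, with mutant effects of 1.05 ± 0.08 and 0.55 ± 0.09 (SE; limma adjusted p = 0.0009871 and 0.0094427). Naive genes as a group thus changed in both directions, and their median was -0.03 in the mock line and -0.10, -0.21 and -0.20 in the mutant lines. Of 14 measured genes of the primed epiblast, 2 were members (*Otx2* and the DNA methyltransferase gene *Dnmt3a*), with 4 called lower and 2 higher. *Lefty1*, a Nodal inhibitor that is no member because of its WT #1 value of -0.44, was lower in the mutant lines (-1.12 ± 0.10, SE; limma adjusted p = 0.001764), and *Sox3* was higher (1.55 ± 0.12, SE; limma adjusted p = 0.0012546).

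The 12 ESC identity markers, checked because the label names embryonic stem cells, were all measured and had mean log2 signals from 8.01 to 14.43. None is a member, but 6 were called lower in the mutant lines and 0 higher, and their median change was -0.34 in the mock line, -0.32, -0.30 and -0.22 in the mutant lines and 0.00 and -0.01 in the WT lines. *Fgf4* and *Gdf3* had the smallest p, with -0.39 ± 0.08 and -0.36 ± 0.07 (SE; limma adjusted p = 0.022757 for both). The other 6 did not pass the test in the mutant lines.

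Some markers of other cell types were called higher, and their part in the fall of the members was not tested. Of 20 measured fibroblast markers, which feeder cells would also express, 8 were called higher and 0 lower in the mutant lines, with medians of 0.69 for mock, 0.65 in I53S #1, 0.21 in I53S #4, 0.16 in I53A #1 and 0.08 and 0.03 in the WT lines. The log2 of their summed signal lay between 13.23 and 14.21 before OHT, between 13.43 and 14.82 on the treated mock and mutant arrays and between 13.35 and 13.57 on the treated WT arrays. The 20 are those that passed the signal limit, with a lowest mean log2 signal of 5.66, and *Lum* and *Fbn1* of the 22 listed did not enter. Of 11 primitive endoderm markers 6 were called higher, with medians of 1.43 for mock and 0.55, 0.27 and 0.77 in the mutant lines, and the log2 of their summed signal was 10.41 to 11.43 before OHT, 11.30 to 11.86 on the treated mock and mutant arrays and 10.67 to 10.94 on the treated WT arrays. Of 10 trophectoderm markers 5 were called higher, with medians of 0.91 for mock and 0.69, 0.48 and 0.64 in the mutant lines, and sums of 10.58 to 11.42, 11.09 to 11.94 and 10.71 to 11.12 in the same order. The members on these marker lists numbered 0, which says little for lists of this size, as members are 1.19% of all genes.

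Members that carry growth factor and cytokine signals numbered 11, with median changes of -1.04 for mock, -0.69, -0.59 and -0.64 in the mutant lines and -0.15 and -0.08 in the WT lines. *Fgf17*, an FGF ligand, went from 6.94 to 4.996 in the mock line, 6.40 to 5.45 in I53S #1, 7.21 to 6.43 in I53S #4 and 6.58 to 5.27 in I53A #1. On the WT arrays it read 6.16 and 6.35 in #1 and 6.95 and 6.72 in #3, so that the treated I53S #4 array overlapped the WT arrays. *Fzd5* and *Fzd7*, receptors for Wnt, changed by -1.04 and -0.70 in the mock line and by -0.69 to -0.45 in the mutant lines. The other 6 measured *Fzd* genes had mean mutant changes from 0.13 to 0.51. Since *Fzd5* and *Fzd7* were chosen for their fall in these lines, the choice in part sets this contrast.

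Members that act in feedback on signalling pathways, or are an output of them, included *Socs2*, *Spry4* and *Etv5*. *Socs2*, a suppressor of cytokine signalling, went from 7.81 to 6.16 in the mock line and by -1.51, -0.97 and -1.21 in I53S #1, I53S #4 and I53A #1. The other measured *Socs* genes had mean mutant changes from -0.08 to 0.24, a contrast in part set by the choice of *Socs2* for its fall. *Lifr* went from 9.12 to 8.13 in the mock line and by -0.93, -0.85 and -0.58 in the mutant lines. Of 14 measured genes of ERK feedback and output, 3 were members, 4 were called lower and 1 higher. The members *Spry4*, *Etv5* and *Myc* changed by -1.07, -0.86 and -1.10 in the mock line. The values of *Spry4* and *Etv5* average 2 and 3 probe sets, of which 1 each met the conditions alone. *Spred2* (-0.48 ± 0.07, SE; limma adjusted p = 0.0074374) was lower without being a member and *Phlda1* (0.46 ± 0.11, SE; limma adjusted p = 0.036921) was higher. The median of the ERK list was -0.15 in the mock line and -0.09, -0.19 and -0.21 in the mutant lines.

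The *Ifitm* genes, interferon-induced membrane proteins that restrict virus entry and are expressed in ESCs and germ cells, were members in all 3 of the cases measured. *Ifitm1* went from 12.13 to 10.78 in the mock line, 11.92 to 11.22 in I53S #1, 11.70 to 10.91 in I53S #4 and 12.12 to 11.16 in I53A #1, and from 11.95 to 11.68 and 11.63 to 11.48 in the WT lines. *Ifitm3* changed by -1.24, -1.11, -0.66 and -0.96 in the mock, I53S #1, I53S #4 and I53A #1 lines, and *Ifitm2* by -0.87, -0.64, -0.57 and -0.79. In the WT lines the 3 genes changed by -0.14 to -0.28, closer to the limit of -0.3 than most members. *Ifitm2*, *Ifitm1* and *Ifitm3* follow each other in the RefSeq gene order with no protein-coding gene between. Probe sequences were not used here, so how far their probe sets share signal was not tested. *Ddx58*, which encodes the RNA sensor RIG-I and is also induced by interferon, changed by -1.09, -1.38, -0.78 and -0.74.

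The largest group by symbol among the members was that of zinc finger names, most of them given to C2H2 zinc finger genes, a family with many DNA-binding repressors. The count is of names: it leaves out zinc finger members named otherwise, such as *Peg3*, and can take in other zinc finger types. Symbols starting with Zfp, Zbtb, Zscan or Zkscan and a number made up 16 of 133 members and 308 of 11170 genes measured (2.76%), so that 5.19% of these genes were members against 1.19% of all genes. The 16 changed by a median of -0.93 for mock, -0.64, -0.59 and -0.77 in the mutant lines and 0.01 and 0.03 in the WT lines. *Zscan10*, a factor of the pluripotency network, went from 9.47 to 8.17 in the mock line and by -0.68, -0.75 and -0.89 in the mutant lines. *Zfp959* changed by -0.94, -0.55, -0.70 and -1.04, and by 0.49 and 0.53 in the WT lines. *Zfp383* and *Zfp74* are next to each other in the order of protein-coding genes. They changed by -0.43 to -0.62 and by -0.71 to -0.96 in the mutant lines.

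The zinc finger genes that were not selected also leaned downward. Of the 292 that are no members, 56 (19.2%) were called lower and 11 (3.77%) higher in the mutant lines, against 5.44% lower and 11.5% higher among the 10745 other genes. Their median change was -0.20 in the mock line, -0.17, -0.14 and -0.14 in the mutant lines and 0.03 and 0.00 in the WT lines. All 4 lines without E3 activity were below 0 for 115 of them (39.4%), against 21.6% of the other genes. The 292 had a median level of 7.11, against 7.68 for the other genes. The median stayed below that of all genes in the mock and mutant lines under each scaling and filter, from -0.18 to -0.22 relative to all genes in the mock line and from -0.11 to -0.14 in the mutant lines. Without the line as a block 8 of the 292 were called lower and 5 higher (2.74% and 1.71%, with 1.24% and 4.67% of all genes). With the filter at the 30th percentile of all values 10 of 371 were called lower and 8 higher (2.7% and 2.16%, with 1.55% and 4.9% of all genes), and with no filter 10 and 7 of 380 (2.63% and 1.84%, with 1.31% and 4.19%). The call count also rests on each mutant line, with 10, 19 and 13 called lower without I53S #1, I53S #4 and I53A #1. These are 3.42%, 6.51% and 4.45% of the 292, with 2.35%, 2.99% and 2.31% of all genes called lower. The family was looked at because its names were frequent among the members.

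**Figure D3:**
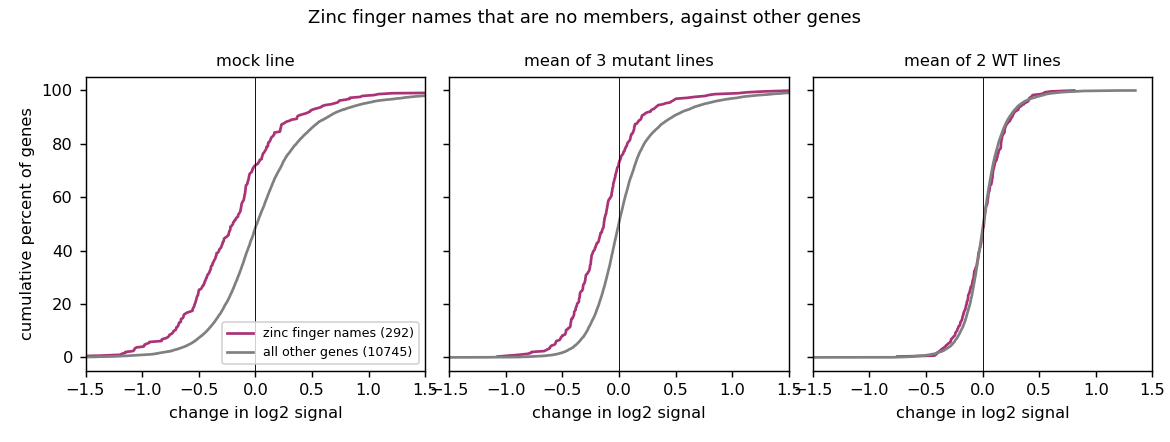
Cumulative percent of genes (vertical axis) by change in log2 signal, OHT+ minus OHT- (horizontal axis, shown from -1.5 to 1.5), in the mock line, over the 3 mutant lines and over the 2 WT lines, for 292 zinc finger genes that are no members (purple) and 10745 other genes (grey). The purple curve lies to the left in the mock and mutant panels, with medians of -0.20 and from -0.17 to -0.14 in single mutant lines, and lies on the grey curve in the WT panel.

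Other transcription factors numbered 7. *Klf12*, a repressor of the Krüppel-like family, went from 6.01 to 4.48 in the mock line, 6.29 to 4.67 in I53S #1, 6.66 to 5.71 in I53S #4 and 5.88 to 5.15 in I53A #1, and read higher after OHT in both WT lines, from 5.11 to 5.50 and from 6.07 to 6.37. Its levels were low and its groups overlapped after OHT. *Tfe3* and *Mitf*, related factors of lysosomal and growth control, changed by -0.77 and -0.71 in the mock line and by -0.94 to -0.42 in the mutant lines. *E2f1*, a cell cycle factor, was the only member among 21 measured genes of DNA replication and the cell cycle. Over all genes 1.19% are members. Of the 21 genes, 1 was called lower and 1 higher. *E2f1* changed by -0.72, -0.56, -0.55 and -0.46, and by -0.02 and 0.32 in the WT lines. These values average 2 probe sets, of which 1 met the conditions alone. The brighter changed by -0.55, -0.20, -0.42 and -0.23 in the mock, I53S #1, I53S #4 and I53A #1 lines and did not meet them.

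**Figure D4:**
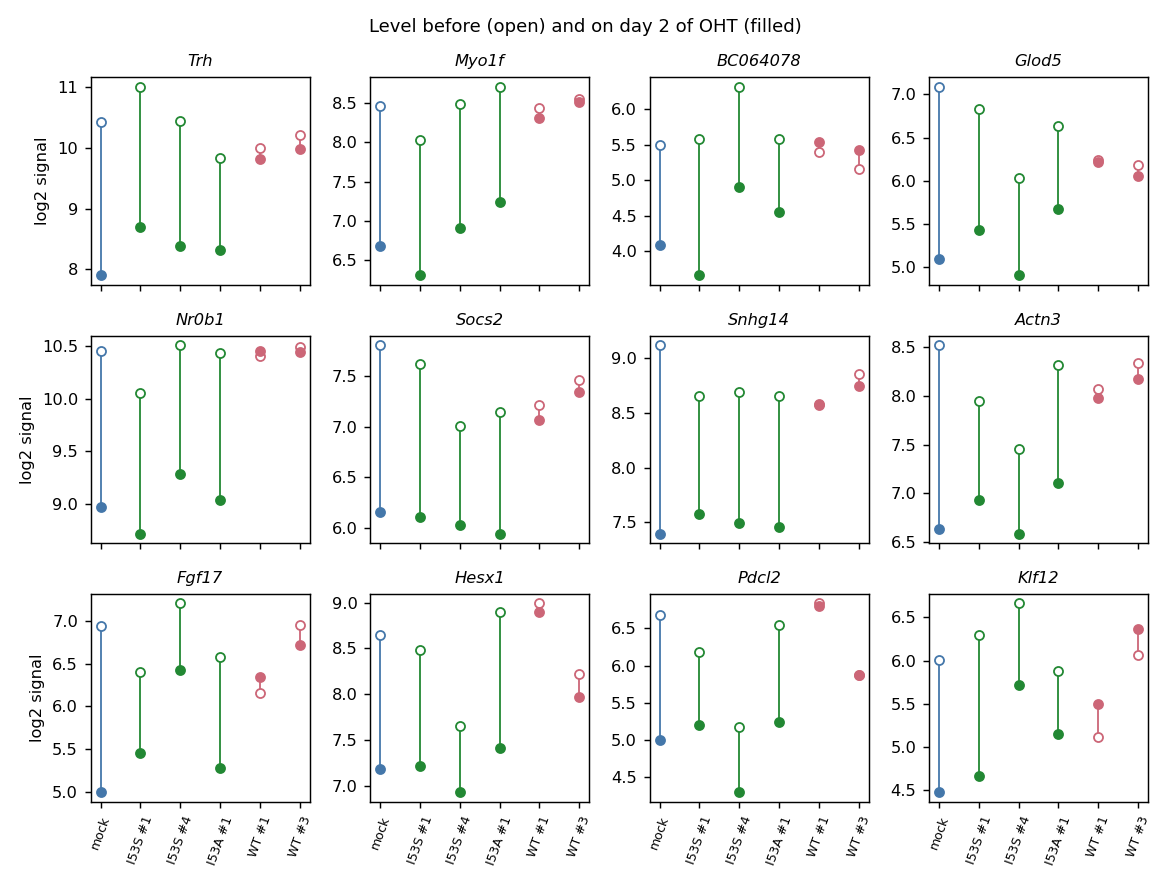
Log2 signal (vertical axis of each panel, with its own scale that does not start at 0) of the 12 members with the lowest mean change, before OHT (open) and on day 2 of OHT (filled), in each line (horizontal axis; mock blue, mutant green, WT red). The filled points of *Trh*, *Nr0b1* and *Myo1f* in the mock and mutant lines lie below all WT points, while those of *Fgf17* and *Klf12* overlap them.

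Genes of the cytoskeleton and of muscle proteins numbered 10, with medians of -0.95 for mock, -0.90, -0.61 and -0.99 in the mutant lines and -0.09 and 0.00 in the WT lines. *Myo1f*, a class I myosin known from leukocytes, was the second in order of mean fall. It went from 8.46 to 6.68 in the mock line, 8.03 to 6.31 in I53S #1, 8.49 to 6.91 in I53S #4 and 8.71 to 7.24 in I53A #1, and read 8.31 to 8.55 on the WT arrays. *Actn3* went from 8.52 to 6.63 in the mock line and by -1.01, -0.87 and -1.21 in the mutant lines. *Ttn*, the gene of the sarcomeric spring titin, changed by -1.02, -1.16, -0.81 and -1.01, and *Epb41l4a*, a protein with a FERM domain, by -1.01, -1.03, -0.67 and -0.97. Of this class *Myo1f* separated the groups with the widest gap.

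Enzymes, transporters and second messenger genes made up further classes. The 9 genes of lipid, phosphoinositide and second messenger pathways had medians of -1.12 for mock and -0.98, -0.65 and -0.57 in the mutant lines. Among them *Pde4d*, a cAMP phosphodiesterase, changed by -1.28, -1.02, -0.75 and -1.40, and *Pla2g1b*, a secreted phospholipase, by -1.32, -1.27, -0.70 and -0.70. The 5 transporter genes had medians of -0.88 and of -0.81, -0.65 and -0.70. *Slc7a3*, which imports arginine and lysine, was the brightest of them, at 11.15 before and 9.93 after OHT in the mock line and 11.03 and 10.84 in WT #1. The 11 genes of nucleotide and other metabolism had smaller medians, -0.85 in the mock line and -0.65, -0.57 and -0.50 in the mutant lines, and include *Glod5*, which changed by -1.99, -1.40, -1.12 and -0.96.

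The 12 genes of chromatin and DNA repair had the smallest median of the named classes in the mock line, -0.72, and -0.60, -0.59 and -0.55 in the mutant lines. *Dnmt3a*, which methylates DNA de novo, went from 8.45 to 7.59 in the mock line and by -0.61, -0.67 and -0.47 in the mutant lines. These values average 5 probe sets, of which 1 met the conditions alone. Their mean changes over the mock and mutant lines ran from -1.08 to -0.22. *Dnmt1*, *Dnmt3b* and *Dnmt3l* are no members, and their mean mutant changes lay between -0.14 and 0.33. *Kat2b*, a histone acetyltransferase, changed by -0.77, -0.65, -0.49 and -0.46. None of 22 measured PRC1 and 12 PRC2 genes is a member. As members are 1.19% of all genes, this says little for lists of this size. *Rnf2*, the gene of Ring1B, changed by -0.20 in the mock line, 0.00 to 0.06 in the mutant lines and 0.13 and -0.10 in WT #1 and WT #3, and since the position of its probe sets relative to the deleted part was not analysed here, it does not check the deletion.

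Imprinted genes were represented by *Snhg14*, the long noncoding RNA of the Prader-Willi region, and *Peg3*, a zinc finger gene expressed from the paternal allele. *Snhg14* went from 9.12 to 7.39 in the mock line, 8.66 to 7.58 in I53S #1, 8.69 to 7.50 in I53S #4 and 8.65 to 7.46 in I53A #1, and read 8.57 to 8.85 on the WT arrays. *Peg3* changed by -0.87, -0.86, -0.79 and -0.76. *Snhg14*, measured by 1 probe set, no longer met the conditions with values as deposited, centred arrays or either other filter. *Peg3* met them in those settings, but not with its brightest probe set. The 4 genes of the cilium (*Tulp2*, *Bbs2*, *Drc3* and *Ift52*) had medians of -0.85 for mock and -0.59, -0.63 and -0.75 in the mutant lines.

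The remaining 32 members (24.1%) have other or unknown roles. They were the dimmest class, with a median level of 6.56, and had medians of -0.87 for mock and -0.71, -0.58 and -0.64 in the mutant lines. *Pdcl2*, a phosducin-like protein of germ cells, changed by -1.69, -0.98, -0.88 and -1.30 in the mock, I53S #1, I53S #4 and I53A #1 lines. BC064078 changed by -1.41, -1.92, -1.41 and -1.03 at a mean level of 5.14, and *Pdzd4*, *Gm21283*, 4833407H14Rik and 2410003I16Rik changed by -1.28 to -1.76 in the mock line.

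**Figure D5:**
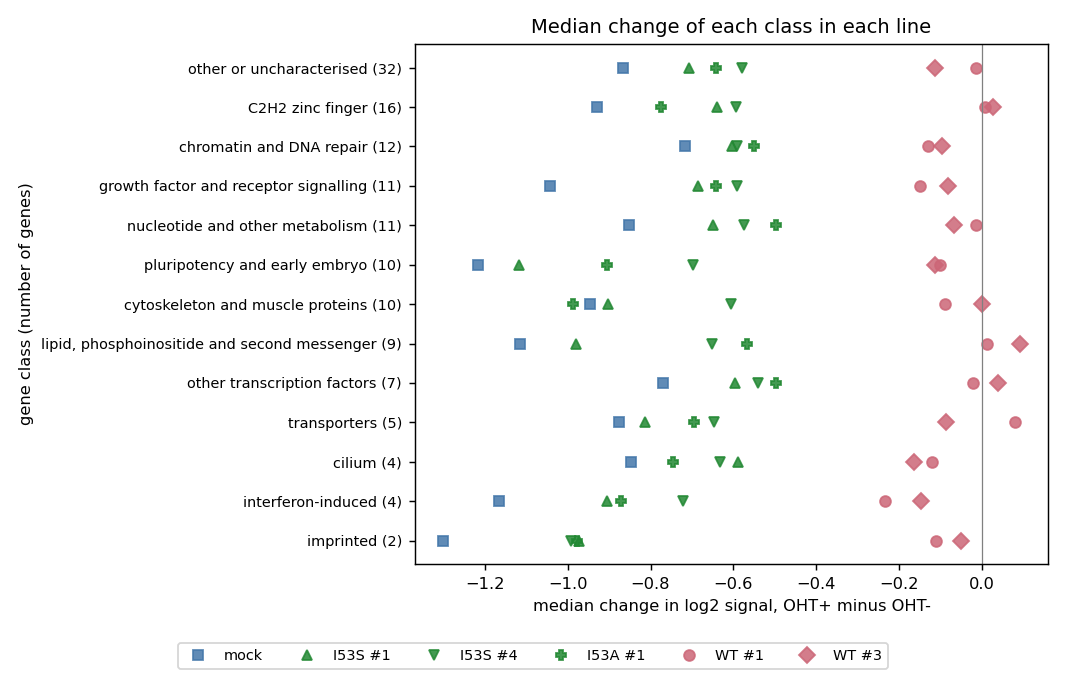
Median change in log2 signal, OHT+ minus OHT- (horizontal axis), of each class of members (vertical axis, number of genes in brackets) in each line; classes were formed after the names were seen. In each class the mock and mutant medians lie below the WT medians, as the choice of genes requires, and the mock median is the lowest except for the cytoskeleton class, where I53A #1 is lowest at -0.99 against -0.95.

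Neighbours were sought in the RefSeq order of protein-coding genes, so noncoding genes between them are not counted. How often other genes lie as close was not counted, and the pairs are a description. Apart from the *Ifitm* trio and *Zfp383* with *Zfp74*, there was 1 gene between *Itpka* and *Rpap1*, between *Sinhcaf* and *Etfbkmt* and between *Ifitm3* and *B4galnt4* in the RefSeq order, 2 between *Eras* and *Glod5* and 3 between *Tulp2* and *Hsd17b14*. *Eras* and *Glod5* are both among the members with a mean fall over 1.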

How the data were processed

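Total RNA of 12 ESC cultures was measured on Affymetrix mouse genome arrays. The deposited values are log2 signals, 1 per probe set and array, and the submitters' processing notes name RMA and Affymetrix Expression Console without versions, while the supporting methods describe MAS5 signals with quantile normalization. The deposited log2 medians differed between arrays, from 4.66 to 5.69, so all 45101 probe sets were quantile normalized. Of these, 64 were controls, 34945 had 1 symbol, 932 several and 9160 no listed symbol. The 18463 sets with 1 symbol and a maximum above 6 were averaged per symbol to 11170 genes. Precision is limited by the number of arrays.

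In R 4.3.3 with limma 3.58.1 (lmFit and eBayes, two-sided), 1 model took all arrays, blocked on the line, and gave an OHT effect each to mock, WT and mutant lines (3 residual degrees of freedom and a prior of 3.3). A second fit separated I53S from I53A (2 residual degrees of freedom). Benjamini-Hochberg adjustment ran over the 11170 genes, and p-values were called under 0.05. They measure only the spread between these lines; the mock effect borrows the spread of the others. Arrays are paired by cell line: deviations from the class mean correlated between the untreated and treated array of a line at 0.505 for the WT and 0.593 to 0.64 for the mutant lines. Correlations between arrays lay from 0.9439 to 0.9902, and no array was a copy of another. On simulated data for the mutant effect with 100 of 11170 genes changed by 1 or by 2, limma called 70% and 95%.

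The members, gene lists and classes were chosen with earlier results of these data known. The genes named are the 30 members with the lowest mean change, members on a list, the 3 nearest inside and outside the limits, the 3 with the smallest p for mock minus mutant and for I53S minus I53A, and other members that describe a class. Of list genes that are no members, up to 2 a list with the smallest p were named, only for the naive, primed epiblast, ERK and ESC identity lists. The list of Wnt target genes holds the member *Myc*. Of its 9 measured genes, 2 were called higher and 2 lower in the mutant lines. Symbols come from the platform annotation. Alternatives were values as deposited, centred arrays, other filters, the brightest probe set, other limits, no block, trended and robust priors and each line left out.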

Additional observations from a re-analysis of the deposited data

Results flagged for a closer look

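Of all 133 members 26 were above 0 in both WT lines. Of the 42 members that the naming rule itself picks, 7 were, and so changed in opposite directions in every line of the groups: BC064078, *Klf12*, *Aoah*, *Fgd4*, *Myc*, 2610044O15Rik8 and *Zfp827*. Each was above 0 in both WT lines, while the fall in the mock and mutant lines was a condition of the choice, and the difference was not tested. The mean change over the WT lines was 0.20 for BC064078, 0.35 for *Klf12*, 0.089 for *Aoah*, 0.20 for *Fgd4*, 0.089 for *Myc*, 0.21 for 2610044O15Rik8 and 0.20 for *Zfp827*.

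Probe sets that the gene table left out also met the conditions. With no listed symbol these were 28 of 1631 probe sets above a log2 signal of 6 (1.72%), and with several symbols 6 of 546 (1.1%). Of single probe sets with 1 symbol, 190 of 18463 did (1.03%).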

How the results depend on the processing

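The choice of scaling and limits moved the number of members more than the filter did. With values as deposited, whose median change over all genes was -0.36 in the mock line and -0.15 in I53S #4, 269 genes met the conditions, 125 of them among the 133. With a limit of -0.3 for the fall there were 249 and with -0.5 there were 68. The other settings (centred arrays, both other filters, the brightest probe set, the WT limits of -0.2 and -0.4) gave 89 to 151 genes. Leaving out 1 line gave 147 to 241, the highest without I53S #4. Of the 133 members, 52 were kept under all of the scaling, filter and probe set settings and 32 when the limit of -0.5 and the WT limit of -0.2 were added.

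The OHT effect in the mutant lines, 2024 genes as reported, was called for 661 with no replicate block (522 higher, 139 lower), where 67 of the members remained called, for 1060 with the filter at the 30th percentile of all values (3.95) and for 1001 with no filter. Leaving out 1 line gave 967 to 2024, with 967, 1123 and 985 without I53S #1, I53S #4 and I53A #1, and 115 to 119 of the members called. The split of 1250 higher and 774 lower became 876 and 1367 with values as deposited and 1454 and 489 with centred arrays. For mock minus mutant OHT effect, 19 genes were called with a trended and robust prior (13 higher, 6 lower), 0 of them members, and 0 in the other settings. The block changed no other count of calls. The WT effect and I53S minus I53A had 0 calls in all settings run. Mock minus mutant without the mock line and I53S minus I53A without the I53A line could not be given. Across scalings and filters the median change of the members kept its sign in each line, from -0.81 to -1.26 in the mock line. The causes of these shifts were not tested, other than fewer lines where 1 was left out.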
